A study of Mus musculus with 4 samples.

Results

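The genes described here are the fibroblast growth factors (FGFs), their receptors, and the feedback and ETS genes that FGF signalling switches on. They were chosen by symbol, and all 39 listed symbols were found among the 20701 in the table of transcript counts. They comprise 18 secreted ligands, 4 FGF homologous factors, 5 receptor genes, 9 feedback genes and 3 ETS transcription factor genes. RNA-Seq was done on cardiac progenitor cells (CPCs) that had been differentiated from mouse embryonic stem cells of the E14 line and sorted for GFP on day 5. All 4 libraries carried the transgene Tg(Nkx2-5-EmGFP), in which Nkx2-5, a cardiac homeobox gene, drives GFP, so that in both groups the cells were selected on the activity of this reporter. By the study's methods, the 2 control libraries came from different control clones and the 2 Isl1_KO libraries from different Isl1-/- clones. The Isl1-/- clones were made by CRISPR/Cas9 editing with a pair of guide RNAs and picked as single clones. The knockout is given by the sample titles, the genotype label and the study's methods, whereas the series-level design text names stable Isl1Sh knockdown lines. The titles were followed here. The methods describe 2 ways of differentiation. Directed differentiation used a last medium with added bFGF and FGF10 protein, and hanging drops had no such addition stated. The methods name RNA extraction of the sorted cells under directed differentiation, and the sample labels do not name the way used.

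FGFs bind receptor tyrosine kinases on the cell surface with heparan sulphate as a co-receptor, and the signal runs through Ras and the MAP kinase ERK to ETS transcription factors. The same signal switches on its own inhibitors, the Sprouty and Spred proteins and the dual-specificity phosphatases, which is why their transcripts are often read as a measure of pathway activity. In the embryo, FGF8 and FGF10 mark the second heart field, the Isl1-expressing progenitors that build the outflow tract and right ventricle, and FGF3 and FGF15 are also made in pharyngeal tissue around the forming heart.

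The libraries held 8821517 and 9147425 counts in control and 13186109 and 11388333 in Isl1_KO, and the members took between 0.128% and 0.148% of these. For Isl1 itself the control clones gave 309 and 326 counts and the Isl1_KO clones 17 and 24, a log2 fold change of -4.39 ± 0.213 (SE, n = 2 per group, adjusted p = 0.00277 by edgeR's quasi-likelihood test). The clones of the groups were not equally alike. Beyond counting error, the coefficient of variation was 1.26% between the control libraries and 16.1% between the Isl1_KO libraries. Of 8 cardiomyocyte markers all 8 were called lower in Isl1_KO, and their summed level was 1918 and 2005 CPM (counts-per-million of a library) in control and 119 and 68.2 CPM in Isl1_KO. Of 10 cardiac progenitor markers 9 were tested and 5 were called lower. These were Isl1 itself, the gene knocked out, with Mef2c, Tbx5, Hand2 and Nkx2-5, the last at -2.16 on the log2 scale. In bulk RNA, fewer cells of a type and less RNA per cell cannot be told apart, and this holds for every result below.

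Of the 39 members, 24 passed the filter on low counts and 3 of them passed the test. Fgf3 and Fgf15 were higher in Isl1_KO, Dusp6 was lower, and the other 21 were not called. Over all 12715 genes tested, 0.503% were called higher and 1.94% lower. The median log2 fold change of the 24 members was -0.043, beside -0.0027 over all tested genes, with 9 members above 0 and 15 below. In 6 members both Isl1_KO libraries lay above both control libraries and in 8 both lay below, beside 29.1% and 29.0% of all tested genes. Only 1 entry of the table was kept per gene, and for the 12 members with several tested entries the log2 fold change differed between entries by at most 0.106, a value reached by Fgf8.

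The 3 calls depended on having both control libraries. The SEs, intervals and p-values of the fit on all 4 libraries rest on a spread pooled over both groups. Its coefficient of variation was 11.1%, below the 16.1% of the Isl1_KO pair and above the 1.26% of the control pair. With a control library left out, only the Isl1_KO pair gives the spread. With either control library left out no member passed, the adjusted p being between 0.282 and 0.295 for Fgf3 and Fgf15 and between 0.316 and 0.365 for Dusp6. The direction and size of these 3 differences stayed within 1.16 to 1.62 for Fgf3, 0.74 to 0.77 for Fgf15 and -1.29 to -0.87 for Dusp6 on the log2 scale, whichever library was left out.

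**Figure D1:**
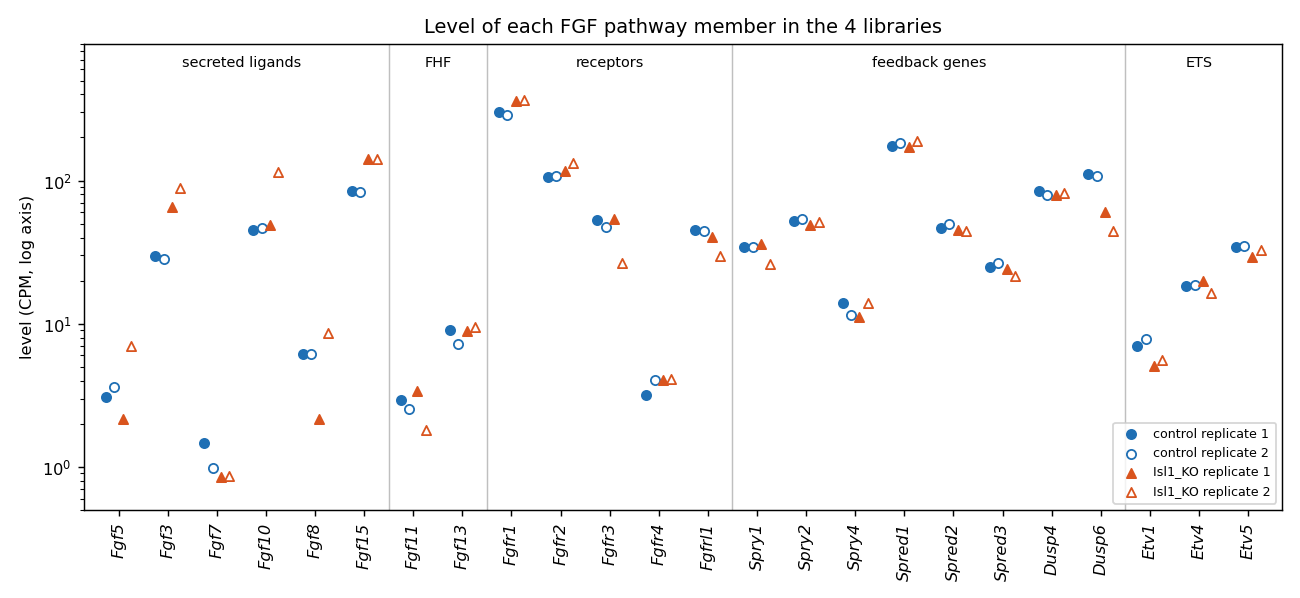
The level of each of the 24 tested members in the 4 libraries, in CPM on a log axis, ordered by role (FHF, FGF homologous factors). Circles are control and triangles Isl1_KO, filled for replicate 1 and open for replicate 2. The circles of a gene lie close together, and the triangles lie far apart for Fgf5, Fgf8, Fgf10 and Fgfr3.

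The start regions of 2 of the called genes are shown because Fgf3 and Dusp6 moved in opposite directions. The sequences are from RefSeq on GRCm38.p6 and cover 250 bases before to 50 bases after the start. A window was found for 28 of the 39 symbols, and for Fgf1, Fgf8, Fgf15, Fgf16, Fgf17, Fgf20, Fgfr1, Spry3, Spry4, Dusp4 and Etv4 none was used. The Fgf3 window lies at chr7:144838362-144838661 on the plus strand and the Dusp6 window at chr10:99262981-99263280 on the plus strand. In the Fgf3 window the capitals mark the 2 longest runs of C and T, each of 26 bases, and in the Dusp6 window they mark ATTGG, the reverse complement of the motif CCAAT.
Fgf3: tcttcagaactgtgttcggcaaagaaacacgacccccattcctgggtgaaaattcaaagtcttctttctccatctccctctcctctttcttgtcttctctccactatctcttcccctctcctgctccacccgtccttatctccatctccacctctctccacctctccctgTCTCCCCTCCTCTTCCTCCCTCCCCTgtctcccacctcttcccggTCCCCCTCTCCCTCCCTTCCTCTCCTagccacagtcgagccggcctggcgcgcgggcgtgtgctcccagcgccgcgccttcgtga
Dusp6: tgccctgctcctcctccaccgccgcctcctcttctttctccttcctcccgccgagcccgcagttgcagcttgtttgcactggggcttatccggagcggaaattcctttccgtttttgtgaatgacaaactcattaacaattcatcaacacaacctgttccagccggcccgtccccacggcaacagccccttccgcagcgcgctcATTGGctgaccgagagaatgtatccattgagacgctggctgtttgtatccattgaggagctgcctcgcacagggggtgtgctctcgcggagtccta
Of the bases of the Fgf3 window 75.0% were C or T on the strand of the gene, a share reached by 0.107% of 32851 windows of this length. At least 1 run of C and T as long was found in 1.18% of the windows. In the Dusp6 window the share was 60.0%.

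Both windows were searched on both strands for the motifs CCAAT and TATAAA of general promoters, for CCGGAA, a core of ETS factor sites, and for TAATTG and TAATGG, cores of homeodomain sites. None of these was in the Fgf3 window, and Dusp6 held CCAAT alone, which 37.4% of all windows held. Over all windows the shares were 14.9% for CCGGAA, 13.6% for TATAAA, 8.0% for TAATTG and 7.73% for TAATGG. The motif CCGGAA was in the windows of 5 members, Fgf5, Fgf12, Fgfr4, Fgfrl1 and Spry2, of which Fgf12 was not tested and the other 4 were not called. A match is only a match of letters, since no binding was measured in these libraries.

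Among the secreted ligands, transcripts of Fgf15 and Fgf3 were the most abundant per length and both rose in Isl1_KO. Summed over the 18 ligands, the deposited RPKM values (counts scaled to transcript length in kilobases and to library size) came to 50.8 and 49.9 in control and to 83.5 and 112 in Isl1_KO. Fgf15 made up 52.3% and 52.2% of this sum in control and 53.2% and 41.1% in Isl1_KO. The share of Fgf3 was 27.9% and 27.0% in control and 36.9% and 39.2% in Isl1_KO. Both Isl1_KO libraries thus lay above both control libraries in the sum and in the share of Fgf3, and not in the share of Fgf15. Of the 18 ligands 6 passed the filter, of which 2 were called higher and 0 lower.

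**Figure D2:**
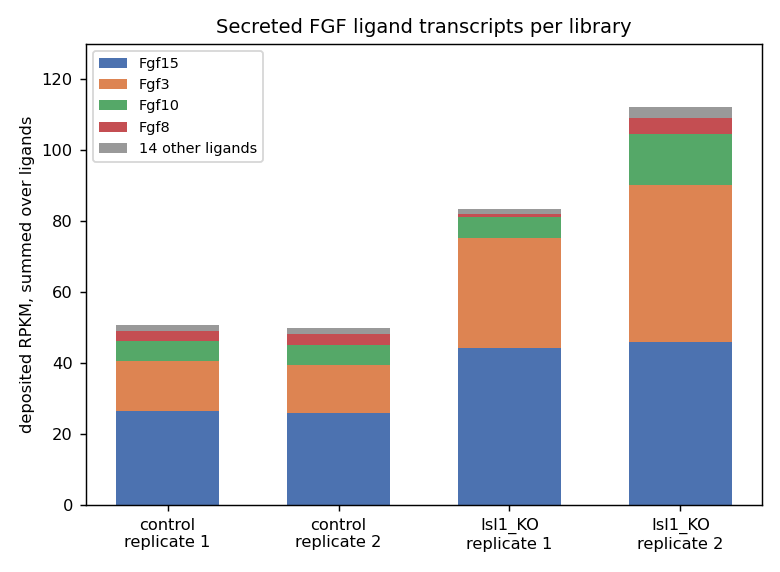
The deposited RPKM of the secreted ligands, summed per library (y axis) and split by gene, for the 2 control and the 2 Isl1_KO libraries. The sum is 50.8 and 49.9 in control and 83.5 and 112 in Isl1_KO, and Fgf15 with Fgf3 make up most of each bar.

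Fgf3 (chromosome 7, 152023988 to 152030341, plus strand, on NCBIM37, the build of the files) encodes a ligand of the Fgf7 subfamily that acts in the inner ear and, together with Fgf10, in the pharyngeal region. It had 29.9 and 28.4 CPM in control and 65.1 and 89.4 CPM in Isl1_KO. Both Isl1_KO clones were above both control clones and the higher one was replicate 2. Its mean of 29.2 ± 0.994 CPM in control rose to 77.2 ± 17.1 CPM (SD over 2 libraries), a 2.65-fold difference with a log2 fold change of 1.40 ± 0.172 (SE, 95% confidence interval 0.97 to 1.84, adjusted p = 0.0306 by edgeR's quasi-likelihood test).

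Fgf15, the mouse counterpart of the hormone FGF19 that restrains bile acid synthesis and a ligand with a role in the embryonic outflow tract, lies on the same strand of chromosome 7 at 152082437 to 152086858. It had 84.9 and 83.3 CPM in control and 142 CPM in each Isl1_KO library. Of the members called, Fgf15 was the one with the closest agreement between the Isl1_KO clones. These gave 1852 and 1638 counts, and counting error at such counts exceeds their difference in CPM, so the SD below does not measure the spread between clones. Its mean of 84.1 ± 1.16 CPM in control rose to 142 ± 0.177 CPM (SD over 2 libraries), a 1.69-fold difference with a log2 fold change of 0.76 ± 0.0616 (SE, 95% confidence interval 0.60 to 0.91, adjusted p = 0.00952 by edgeR's quasi-likelihood test). An exon of Gm17685, a long non-coding RNA on the opposite strand, overlaps Fgf15, and since reads of both strands were counted together the 2 genes cannot be told apart.

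Between Fgf3 and Fgf15 lies Fgf4 (152047291 to 152051148, plus strand), a ligand of the primitive streak and the limb bud, which starts 23.3 kb from the start of Fgf3. Fgf15 starts 58.4 kb from it. Fgf4 gave 0 and 3 counts in the control clones and 11 and 27 in the Isl1_KO clones, which was below the filter on low counts. Both Isl1_KO libraries were above both controls, at a depth where 3 counts correspond to between 0.228 and 0.340 CPM. With no filter it did not pass, with an adjusted p of 0.155 by edgeR's quasi-likelihood test and 0.197 by DESeq2's Wald test. The 9 other tested genes around this cluster, from Shank2 on one side to Mrgprf on the other, were not called, with log2 fold changes between -0.63 and 0.51. The nearest of them were Oraov1 at 0.23 and Ccnd1, a cyclin gene, at 0.26 (95% confidence interval -0.021 to 0.54).

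**Figure D3:**
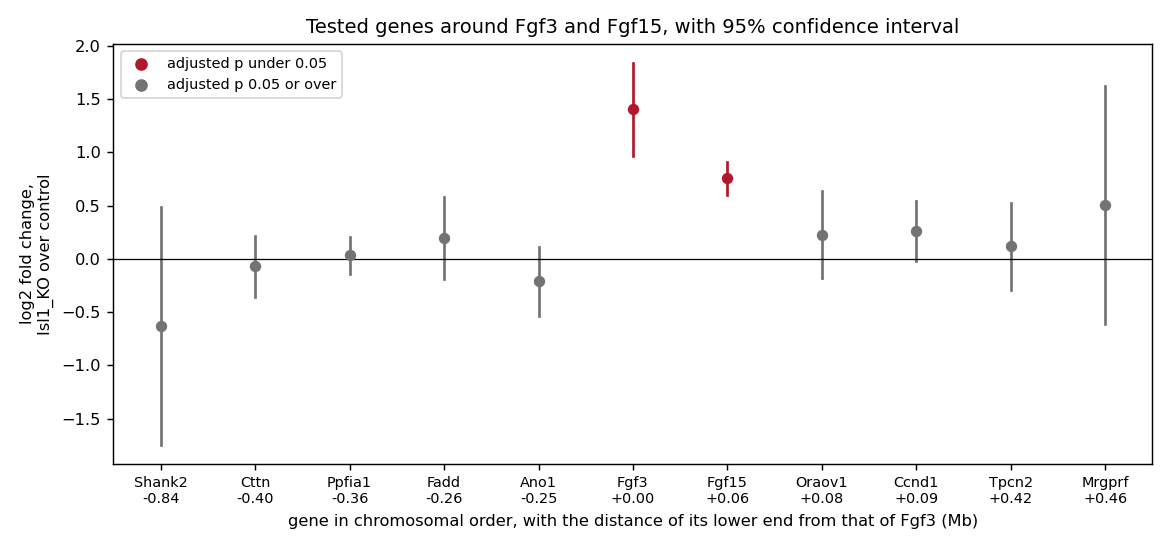
Log2 fold change of Isl1_KO over control (y axis) with its 95% confidence interval for the tested genes around Fgf3 and Fgf15 on chromosome 7, in chromosomal order with the distance in Mb from Fgf3 (x axis). Fgf3 at 1.40 and Fgf15 at 0.76 are the 2 genes past the adjusted threshold of 0.05, and the 9 neighbours are not.

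Among the 6 tested ligands, the Isl1_KO clones differed at least 2-fold in Fgf10, Fgf8 and Fgf5. Fgf10 (chromosome 13, 119458598 to 119580922), a ligand made by second heart field progenitors, had 45.0 and 46.4 CPM in control and 48.7 and 114 CPM in Isl1_KO. Replicate 1 was just above the controls and replicate 2 was 2.35-fold above replicate 1. The log2 fold change was 0.83 ± 0.396 (SE, 95% confidence interval -0.17 to 1.84, adjusted p = 0.283 by edgeR's quasi-likelihood test), and it was 0.092 without Isl1_KO replicate 2 and 1.32 without Isl1_KO replicate 1. Exons of Gm16263 overlap Fgf10 on the opposite strand, so its reads cannot be told apart from those of that gene.

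Fgf8 (chromosome 19, 45811288 to 45817405), the ligand needed for growth of the outflow tract and also made in the primitive streak, had 6.13 CPM in both control libraries and 2.15 and 8.68 CPM in Isl1_KO. Isl1_KO replicate 1 was below both controls and replicate 2 above both. The log2 fold change was -0.20 ± 0.620 (SE, adjusted p = 0.879 by edgeR's quasi-likelihood test), and its sign depended on the library used, with -1.50 without replicate 2 and 0.50 without replicate 1. Fgf5, a ligand of the epiblast, had 3.06 and 3.61 CPM in control and 2.15 and 6.94 CPM in Isl1_KO and turned in the same way, from -0.63 without replicate 2 to 1.05 without replicate 1. Of the remaining tested ligand, Fgf7, a growth factor for epithelia, the counts were 13 and 9 in control and 11 and 10 in Isl1_KO (log2 fold change -0.51, 95% confidence interval -1.51 to 0.48).

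The same Isl1_KO replicate 2 held more of the transcripts of early mesoderm. The summed level of 6 primitive streak and early mesoderm markers was 46.1 and 46.5 CPM in control, 45.6 CPM in Isl1_KO replicate 1 and 175 CPM in replicate 2. All 6 were higher in CPM in replicate 2 than in replicate 1, but not to a like degree. Tbx6 had 17 counts in replicate 1 and 16 in replicate 2, so it was higher only once scaled to library size. The ratio of replicate 2 to replicate 1 in CPM was 1.06 for Tbx6 and 1.43 for Evx1. It was 4.83 for Eomes, 5.34 for T and 5.64 for Mixl1. Msgn1 had 0 counts in replicate 1 and 6 in replicate 2. The counts of Eomes were 237 in replicate 1 and 1015 in replicate 2, beside 121 and 111 in control, those of T were 99 and 468 beside 111 and 110, and those of Mixl1 were 57 and 285 beside 31 and 42. None of the 5 markers tested passed, and their part in the levels of Fgf4, Fgf5, Fgf8 and Fgf10 was not tested. Of 8 pluripotent stem cell markers, 7 were likewise higher in replicate 2 than in replicate 1, and 0 of the 6 tested were called. Their summed level of 132 and 129 CPM in control and 80.3 and 105 CPM in Isl1_KO was made up mostly of Klf4, Tdgf1 and Sox2. Klf4 (60.8 and 56.1 CPM against 50.5 and 33.8 CPM) and Tdgf1 (39.6 and 40.4 CPM against 3.31 and 20.7 CPM) lay below the controls, and Pou5f1 (5.45 and 5.91 CPM against 6.0 and 14.7 CPM) and Zfp42 lay above them. Of the 24 members 4 differed at least 2-fold between the Isl1_KO libraries (Fgf5, Fgf8, Fgf10 and Fgfr3) and 0 between the control libraries, where 5.62% and 0.818% of all tested genes did.

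**Figure D4:**
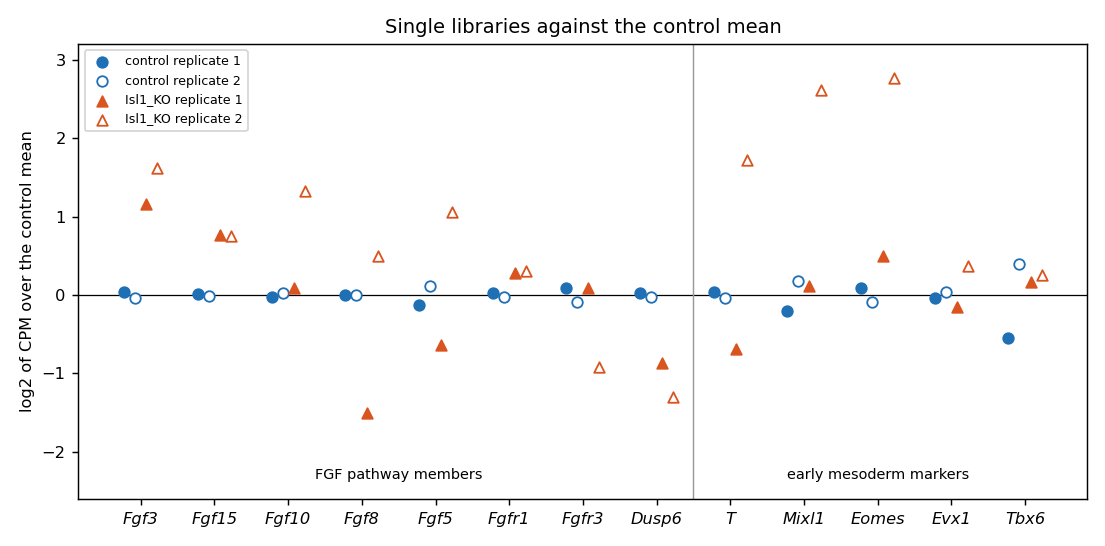
The level of each library relative to the mean of the control libraries (y axis, log2 of the ratio of CPM) for 8 FGF pathway members and the 5 tested early mesoderm markers (x axis). Open triangles, Isl1_KO replicate 2, lie above the filled ones for Fgf10, Fgf8 and Fgf5 and for the 5 markers, and the pair of triangles lies together for Fgf15 and Fgfr1.

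The other 12 ligands were at low counts or absent. Fgf17, of the Fgf8 subfamily, gave 3 and 4 counts in the control clones and 9 and 16 in the Isl1_KO clones, and its relative Fgf18 gave 1 and 1 against 2 and 7. For both, each Isl1_KO library had more counts than either control, and replicate 2 was the higher of the Isl1_KO libraries, at 2.01 and 3.95 times the CPM of replicate 1. Fgf1 was at 2 and 8 counts in control and at 1 in each Isl1_KO library, and Fgf16, a ligand of the postnatal heart, had 4 and 12 against 5 and 1. Fgf9, Fgf20, Fgf22 and Fgf23 had at most 2 counts in any library. Fgf2, Fgf6 and Fgf21 had 0 counts in all 4 libraries, which allows a level of up to 0.228 to 0.340 CPM, the level of 3 counts. The entry for Fgf2 was 690 bases long and its exons overlap those of Nudt6, Cetn4 and Bbs12. None of these 12 was tested with the filter on low counts.

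The FGF homologous factors are not secreted and bind voltage-gated sodium channels inside the cell. Fgf13 gave 80 and 66 counts in the control clones and 115 and 109 in the Isl1_KO clones (log2 fold change 0.17, 95% confidence interval -0.31 to 0.64). Fgf11 had 26 and 23 counts against 44 and 21 (log2 fold change -0.058, 95% confidence interval -1.01 to 0.90). Once scaled to library size the groups overlapped in both, with 9.08 and 7.22 CPM against 8.84 and 9.46 CPM for Fgf13 and 2.95 and 2.52 CPM against 3.38 and 1.82 CPM for Fgf11. Fgf12 and Fgf14 had at most 4 counts in a library and were not tested.

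All 5 receptor genes were tested and none was called at the adjusted threshold. An unadjusted p under 0.05 was found for 2, Fgfr1 and Fgfr2, and also for 2957 of all 12715 tested genes. Fgfr1 (chromosome 8, 26629267 to 26642853), the main FGF receptor of early mesoderm, was the most abundant receptor per length, with a mean deposited RPKM of 33.0 in control and 41.3 in Isl1_KO. It had 299 and 287 CPM in control and 357 and 363 CPM in Isl1_KO. The groups did not overlap and the 2 clones within each group were close. The log2 fold change was 0.30 ± 0.0644 (SE, 95% confidence interval 0.13 to 0.46, adjusted p = 0.0876 by edgeR's quasi-likelihood test).

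Fgfr2 (chromosome 7, 137305965 to 140315033), the receptor of Fgf3 and Fgf10 in its epithelial splice form, had 106 and 107 CPM in control and 117 and 133 CPM in Isl1_KO. Both Isl1_KO libraries were above both controls, with a log2 fold change of 0.23 ± 0.0829 (SE, 95% confidence interval 0.021 to 0.44, adjusted p = 0.188 by edgeR's quasi-likelihood test). The GENCODE annotation, from which this position is taken, gives Fgfr2 exons shared with Ctbp2 on the same strand. Reads in those exons would belong to either gene. The counts are of a RefSeq entry of 5178 bases, and whether it holds the shared exons was not tested. Splice forms with different ligand binding were not told apart, since transcripts of 1 gene share reads.

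Fgfr3 had 53.4 and 47.3 CPM in control and 53.6 and 26.5 CPM in Isl1_KO, so that replicate 2 alone was low, at 0.496 of replicate 1. Its log2 fold change was -0.32 ± 0.326 (SE, adjusted p = 0.589 by edgeR's quasi-likelihood test), with 0.093 without replicate 2 and -0.92 without replicate 1. Fgfrl1, a receptor-like protein that lacks the kinase domain, had 45.2 and 44.8 CPM in control and 40.4 and 29.8 CPM in Isl1_KO, again lowest in replicate 2 (log2 fold change -0.36, 95% confidence interval -0.77 to 0.055). Replicate 2 was also lowest in the summed level of 6 fibroblast feeder markers, which was 1502 and 1486 CPM in control and 940 and 444 CPM in Isl1_KO with 0 of 6 called, and their part in these values was not tested. That sum was led by Col1a1, with 925 and 910 CPM in control and 603 and 328 CPM in Isl1_KO. Of the 6, Thy1 alone was higher in replicate 2 than in replicate 1, at 3.82 against 2.31 CPM. Fgfr4, the least abundant receptor per length, gave 28 and 37 counts in the control clones and 53 and 47 in the Isl1_KO clones (log2 fold change 0.17, 95% confidence interval -0.43 to 0.78). Of the deposited RPKM summed over Fgfr1 to Fgfr4, Fgfr1 made up 63.7% and 63.3% in control and 66.1% and 68.6% in Isl1_KO, and Fgfr3 made up 13.5% and 12.3% in control and 11.7% and 5.95% in Isl1_KO.

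Of the 9 feedback genes 8 were tested, 1 was called lower and 0 higher. Dusp6 (chromosome 10, 98725865 to 98730122, plus strand) encodes the cytoplasmic phosphatase that removes phosphate from ERK and is switched on by FGF signalling. It had 111 and 107 CPM in control and 59.9 and 44.6 CPM in Isl1_KO. Both Isl1_KO clones were below both controls, replicate 2 more so. The mean fell from 109 ± 2.84 to 52.2 ± 10.8 CPM (SD, n = 2 each), that is to 0.478 of the control level, with a log2 fold change of -1.07 ± 0.147 (SE, 95% confidence interval -1.44 to -0.69, adjusted p = 0.0371 by edgeR's quasi-likelihood test). Dusp6 was thus lower in the same libraries in which Fgf3 and Fgf15 were higher. Cardiomyocyte markers were lower in these libraries too, as given above, and their part in the levels of Dusp6, Fgf3 and Fgf15 was not tested.

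The other tested feedback and ETS genes stood nearer to 0 than Dusp6. These 10 had log2 fold changes between -0.49 and 0.0096 with a median of -0.086, and none was called. Dusp4, a nuclear phosphatase of the same family, had 84.2 and 78.9 CPM in control and 79.8 and 81.3 CPM in Isl1_KO. The groups overlapped, and the 95% confidence interval of its log2 fold change of -0.018 was -0.20 to 0.16, which does not include the Dusp6 value. Dusp4 and Dusp6 were of like abundance in control, with a mean deposited RPKM of 19.0 and 22.1, and stood at 19.1 and 10.7 in Isl1_KO. The difference between these 2 differences was not tested.

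The Sprouty proteins block the signal between receptor and Ras. Spry2 had 51.9 and 53.8 CPM in control and 49.0 and 51.3 CPM in Isl1_KO (log2 fold change -0.076, 95% confidence interval -0.29 to 0.14). Spry1 had 34.4 CPM in both control libraries and 35.9 and 26.1 CPM in Isl1_KO (log2 fold change -0.15, 95% confidence interval -0.58 to 0.29), so its 2 Isl1_KO clones lay on either side of the controls. Spry4 gave 122 and 106 counts in the control clones and 145 and 161 in the Isl1_KO clones (log2 fold change -0.021, 95% confidence interval -0.49 to 0.45). Spry3 had 0 counts in all 4 libraries.

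The Spred proteins bind the Ras inhibitor neurofibromin and restrain the step from Ras to Raf. Per length, Spred1 came after Dusp6 and Dusp4 among the feedback genes in control, with a mean deposited RPKM of 16.0. It had 174 and 184 CPM in control and 172 and 189 CPM in Isl1_KO. Its log2 fold change was 0.0096 with a 95% confidence interval of -0.19 to 0.21. The intervals of Spred2 (log2 fold change -0.097) and Spred3 (-0.18) were -0.33 to 0.13 and -0.48 to 0.13, and in both the Isl1_KO libraries lay below the controls.

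Etv1, Etv4 and Etv5 encode the ETS factors of the PEA3 family, which turn FGF signals into transcription. Etv1 had 7.04 and 7.88 CPM in control and 5.07 and 5.55 CPM in Isl1_KO, with no overlap of the groups and a log2 fold change of -0.49 ± 0.188 (SE, 95% confidence interval -0.97 to -0.014, adjusted p = 0.207 by edgeR's quasi-likelihood test). Its unadjusted p was 0.0456, and 2957 of all 12715 tested genes had one under 0.05. Etv5 had 34.2 and 35.1 CPM in control and 29.4 and 32.7 CPM in Isl1_KO (log2 fold change -0.16, 95% confidence interval -0.43 to 0.11). Etv4 had 18.3 and 18.7 CPM against 19.8 and 16.4 CPM (log2 fold change -0.028, 95% confidence interval -0.39 to 0.34). Etv1 and Etv5 thus lay below the controls in both Isl1_KO clones, as did 29.0% of all tested genes. Neither passed the adjusted threshold, and Etv4 overlapped.

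**Figure D5:**
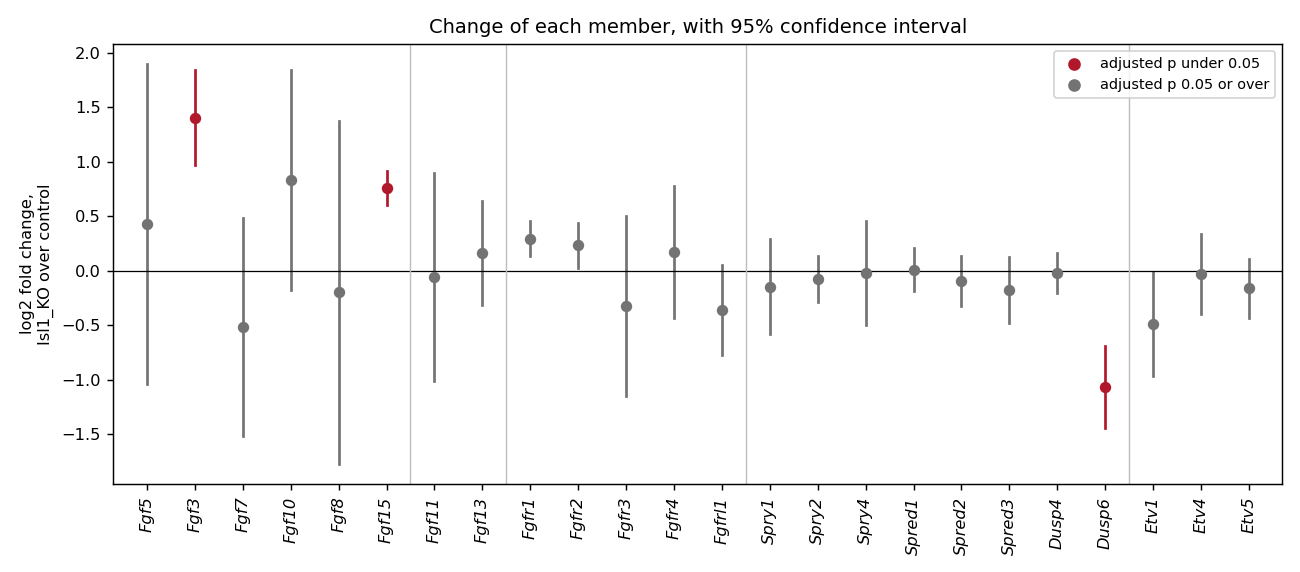
Log2 fold change of Isl1_KO over control (y axis) with its 95% confidence interval for the 24 tested members in the order ligands, FGF homologous factors, receptors, feedback genes and ETS factors, with grey lines between the roles. Fgf3 (1.40), Fgf15 (0.76) and Dusp6 (-1.07) have an adjusted p under 0.05, and the intervals are widest for Fgf8 and Fgf5.

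The rest of the pathway was tested in the same way. Of 60 further names, from heparan sulphate enzymes and adaptors to MAP kinases and immediate response genes, 59 were in the table and 55 were tested. Of these 55, 1 was called higher and 1 lower, beside 0.503% and 1.94% of all tested genes. Their median log2 fold change was -0.064. The one called higher was Dusp9, a phosphatase of ERK, which had 152 and 148 CPM in control and 206 and 220 CPM in Isl1_KO (log2 fold change 0.51 ± 0.0684 SE, adjusted p = 0.0359 by edgeR's quasi-likelihood test). The one called lower was Hs6st1, an enzyme that adds sulphate to heparan sulphate chains, with 43.7 and 45.8 CPM in control and 27.9 and 24.7 CPM in Isl1_KO (log2 fold change -0.77 ± 0.109 SE, adjusted p = 0.0397 by edgeR's quasi-likelihood test). Neither passed without one of the control libraries, the adjusted p being 0.530 to 0.537 for Dusp9 and 0.464 to 0.481 for Hs6st1.

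Among the phosphatases of ERK, Dusp6 was therefore lower, Dusp9 higher and Dusp4 near 0. Dusp5, a nuclear phosphatase of ERK, gave 198 and 187 counts in the control clones and 194 and 77 in the Isl1_KO clones, lowest in replicate 2 (log2 fold change -0.98, 95% confidence interval -1.91 to -0.054, adjusted p = 0.199 by edgeR's quasi-likelihood test). Dusp7 stood at -0.086. The receptor antagonist Il17rd, also called Sef, was at -0.15 (95% confidence interval -0.34 to 0.037) and Flrt3, a membrane protein that binds FGF receptors, at 0.058. Of the immediate response genes, Egr1 was at -0.31 (95% confidence interval -0.73 to 0.11), Fos at 0.33 (95% confidence interval -0.026 to 0.68) and Ccnd1 at 0.26. Myc, the member of this list with the largest log2 fold change, had 64.5 and 61.2 CPM in control and 94.5 and 131 CPM in Isl1_KO (0.84, 95% confidence interval 0.42 to 1.27, adjusted p = 0.0754 by edgeR's quasi-likelihood test). None of the 7 was called, and Myc passed under DESeq2, with no filter, under the study's criteria and with a replicate block.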

How the data were processed

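Groups of the RNA-Seq libraries of sorted CPCs, 2 control and 2 Isl1_KO, were taken from the sample titles. The authors mapped reads to mm9 with STAR (introns of 20 to 500000 bases) and deposited whole-number counts of exonic reads per RefSeq transcript, made with HOMER on both strands together. The authors' RPKM values were made with edgeR. The deposited table also holds the authors' own DESeq2 comparison (a mean signal, log2 fold changes, a Wald score and p-values), which was not used. Versions of these tools are not given in the sources used here. The number of per-sample columns not matched to a sample was 0.

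Of 31507 entries, that with the highest summed count was kept for each of 20701 symbols. The fit was edgeR 4.0.16 in R 4.3.3 (quasi-likelihood F test, TMM, filterByExpr, two-sided), and p-values of the 12715 tested genes were adjusted by Benjamini and Hochberg's method. Called means an adjusted p under 0.05, and a log2 fold change is Isl1_KO over control. For 1 gene, permuting 2 against 2 libraries has a smallest two-sided exact p of 0.333, so the test used shares error across genes. Floors of 3 counts cover counting error only. CPM used effective library sizes. Gene positions came from GENCODE vM1 (build NCBIM37), with 38 members placed and Spry3 not placed. The alternatives were DESeq2 1.42.0, the study's criteria (an absolute log2 fold change over 0.58 with an unadjusted p under 0.05 in DESeq2), RLE size factors, 2 other filters, all entries, a replicate block, the control libraries summed, and each library left out. The fit was also run on simulated counts, and no result of that run is given or used here. The members, gene lists and tests were chosen with earlier results of these data known. By rule, all members, Isl1, the called genes of the wider pathway with Flrt3, Il17rd, Dusp5, Dusp7, Dusp9, Egr1, Fos and Ccnd1, and the tested neighbours of Fgf3 were considered for naming, and 8 lists of cell type markers were summed. Single marker genes and Myc were named after their values were seen.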

Additional observations from a re-analysis of the deposited data

How the results depend on the processing

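The member calls, Fgf3 and Fgf15 higher and Dusp6 lower, were the same under RLE size factors, DESeq2, no filter, a minimum of 10 counts in every library and all transcript entries. The study's criteria added Fgf4, for 3 members higher, ended the call of Dusp9 (0.51 on the log2 scale) and added Dusp5 (-0.98) and Myc. DESeq2 and the fit with no filter each called 3 other pathway genes, Dusp9, Hs6st1 and Myc. The number of all genes called was 311, and it was 604 with DESeq2, 993 with the study's criteria, 492 with no filter and 31 with the control libraries summed as 1 sample. With the control libraries summed, 0 members were called higher and 0 lower and 0 other pathway genes were called, with adjusted p-values of 0.243 for Fgf3, 0.252 for Fgf15, 0.30 for Dusp6, 0.479 for Dusp9 and 0.429 for Hs6st1. That fit has fewer degrees of freedom, and the fold changes stayed at 1.40, 0.76, -1.07, 0.51 and -0.77. It was run because the control libraries differed little beyond counting error (coefficient of variation 1.26%, against 16.1% for the Isl1_KO pair). The methods name different control clones, but whether these 2 libraries vary as independent samples was not tested. The calls of Fgf3, Fgf15, Dusp6, Dusp9 and Hs6st1 rest on taking them as such. At an unadjusted p under 0.05 the fit on all 4 libraries had 2957 genes, 6 of them members.

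With each library left out in turn, between 27 and 6350 genes were called, between 0 and 9 members higher, between 0 and 5 lower and between 0 and 35 other pathway genes, while Isl1 stayed between -4.74 and -4.08. The low ends were without a control library and the high ends without Isl1_KO replicate 1, where the spread comes from the control pair alone and the lone Isl1_KO library is assumed to vary likewise. In that fit Fgf4, Fgf5, Fgf8, Fgf10, Fgf17, Fgfr1 and Fgfr2 were also called higher and Fgf16, Fgfr3, Fgfrl1 and Spry1 lower, and without Isl1_KO replicate 2 Fgfr1 and Fgfr2 were also called higher and Fgf8, Etv1 and Etv5 lower. Some log2 fold changes not called in the fit on all 4 libraries turned sign in these fits. They were those of Fgf8 (-1.50 to 0.50), Fgf5 (-0.63 to 1.05), Fgf11 (-0.58 to 0.31), Fgfr3 (-0.92 to 0.093), Spry1 (-0.40 to 0.063), Spry4 (-0.19 to 0.14), Spred1 (-0.061 to 0.078), Dusp4 (-0.065 to 0.029), Etv4 (-0.17 to 0.10), Flrt3 (-0.085 to 0.19), Dusp7 (-0.25 to 0.059), Oraov1 (-0.010 to 0.43), Ppfia1 (-0.0073 to 0.076) and Cttn (-0.23 to 0.076).

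A replicate block gave 454 called genes, the same 3 members passed (Fgf3 at an adjusted p of 0.0102, Fgf15 at 0.0109 and Dusp6 at 0.00979) and 3 other pathway genes passed, again Dusp9, Hs6st1 and Myc, with Isl1 at -4.39. The deviations of libraries that share a number had r = 0.014 (12715 genes, which are not independent replicates). Since the control libraries differed little beyond counting error, this r cannot decide whether the numbers are pairs. The numbers were not taken as pairs. Counts of 3 or fewer limit what can be said of the ligands at low levels, and 2 clones per group limit every comparison.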

Other observations

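Markers of the remaining cell types were set beside the members as values. The summed level of 8 endothelium and blood markers was 554 and 571 CPM in control and 477 and 348 CPM in Isl1_KO, with 1 of 8, Runx1, called higher. The sum was led by the globin gene Hbb-bh1, which had 284 and 293 CPM in control and 160 and 42.0 CPM in Isl1_KO, with an adjusted p of 0.206 by edgeR's quasi-likelihood test. In 4 of the 8 (Pecam1, Tal1, Gata1 and Runx1) both Isl1_KO libraries lay above both controls, and in the other 4 (Cdh5, Tek, Hba-a1 and Hbb-bh1) both lay below. Endoderm markers summed to 56.9 and 56.2 CPM in control and 54.9 and 31.1 CPM in Isl1_KO, and neural ectoderm markers to 40.9 and 41.1 CPM against 31.1 and 20.7 CPM, with Neurog2 at 0 in control. These sums were led by Ttr (30.3 and 31.1 CPM in control, 31.2 and 8.85 CPM in Isl1_KO) and Tubb3 (31.0 and 30.4 CPM in control, 25.5 and 12.7 CPM in Isl1_KO). Of the 6 endoderm markers 2 were higher in Isl1_KO replicate 2 than in replicate 1, and of the 5 neural ectoderm markers 3 were. No marker of the last 2 lists was called at the adjusted threshold of edgeR's quasi-likelihood test.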
